A study of Mus musculus with 6 samples.

Results

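This account covers 48 genes of DNA replication and mitosis, picked by symbol from the 55401 genes of the deposited table and split into 25 replication genes and 23 mitosis genes. RNA was sequenced from mesenchymal stromal cells, a plastic-adherent connective tissue culture that can also hold macrophages, grown from the femoral marrow of C57/B6J mice. The 6 libraries were 3 of Nlrp3 knockout cells (labelled NLRP3-/-) and 3 of wild-type (WT) cells, and every culture had received 3 µg/mL lipopolysaccharide (LPS), a bacterial cell wall component, for 24 h. Unstimulated cells were not analysed here, so the comparison is between genotypes under LPS and not a response to LPS. The labels give neither the knockout allele nor the age of the mice, nor do they say whether a genotype's 3 libraries represent different mice or dishes. The p-values therefore reflect only library-to-library spread, possibly technical, and if all 3 shared a source then that source and the genotype cannot be told apart.

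Cells copy their DNA in S phase and separate the copies in mitosis. Before S phase the licensing factors Cdc6 and Cdt1 load the MCM helicase onto origins. In S phase Cdc45 and the GINS proteins activate that helicase, and ribonucleotide reductase supplies deoxynucleotides. Mitotic cyclins with Cdk1 then drive chromosome condensation and spindle assembly, the spindle checkpoint holds the anaphase-promoting complex in check until kinetochores are attached, and Cdc20 activates that complex. The genes are transcribed in waves: E2F factors act on many replication genes in late G1, and MuvB complexes, with B-Myb and FoxM1, act on mitotic genes through CHR elements and neighbouring CCAAT boxes. Bulk levels of these transcripts therefore follow the share of cycling cells. In such data a larger share of cycling cells and more RNA per cell cannot be told apart.

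The libraries held 53.2 to 66.3 M estimated counts, or about 13.3 to 16.6 M fragments. Levels are given in FPKM, sequenced fragments per kilobase of transcript after scaling to library size. Each log2 difference is the knockout mean minus the WT mean of log2(FPKM + 1), so it is compressed for low genes. Nlrp3 (chromosome 11) was listed at 0 FPKM in each of the 3 knockout libraries, against 2.76, 1.68 and 1.86 FPKM in the WT libraries (log2 difference -1.62, adjusted p = 0.000408, limma). Of 27 tested macrophage markers 26 rose and none fell (limma), and their summed level lay between 1810 and 2060 FPKM in knockout libraries and between 786 and 889 FPKM in WT libraries. Of 21 tested stromal markers 4 rose and 12 fell, with sums of 3650 to 3840 FPKM in knockout and 4800 to 5060 FPKM in WT libraries. Granulocyte markers summed to 12.3 to 17.1 FPKM in knockout and 11.3 to 11.7 FPKM in WT libraries, with Elane, Ngp, Cxcr2 and Retnlg at 0 throughout; 2 of 3 tested rose and 1 fell. Lymphoid markers summed to 2.55 to 4.39 FPKM in knockout and 0.61 to 1.6 FPKM in WT libraries, with Cd3e, Cd3d and Cd3g at 0 throughout and the 1 tested gene higher. Erythroid and megakaryocyte markers summed to 160.0 to 182 FPKM in knockout and 69.8 to 77.7 FPKM in WT libraries, with Gp9 at 0 throughout and 2 of 3 tested genes higher. Endothelial markers summed to 0.07 to 0.23 FPKM in knockout and 0.51 to 0.69 FPKM in WT libraries, and none was tested. What part these markers' changes have in the results below was not tested.

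Few replication and mitosis genes passed the test between knockout and WT cultures, and most differed by less than 1.5-fold. All 48 members passed the expression filter, with at least 329 estimated counts in each library. Of the 25 replication genes, 5 rose in the knockout cultures, none fell and 20 did not pass the test (limma, adjusted p threshold 0.05). Of the 23 mitosis genes, 1 rose, 1 fell and 21 did not pass. Over all 12136 tested genes 10.4% rose and 9.20% fell, so the members' 12.5% higher was near that background and their 2.08% lower was under it. By class, 20.0% of the replication genes rose, above that background, and 4.35% of the mitosis genes rose, below it. The median log2 difference was 0.16 for replication genes, 0.07 for mitosis genes and 0.01 over all tested genes. A difference between the replication and the mitosis genes themselves was not tested.

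The intervals of the differences show how small most of them were. For 39 of the 48 members the 95% interval lay within a 1.5-fold change in either direction on this scale, against 65.4% of all tested genes. The members were also more abundant, with a median mean level of 14.5 FPKM in knockout and 13.6 FPKM in WT cultures, against 6.27 FPKM in knockout and 6.16 FPKM in WT cultures over all tested genes. Estimates were above 0 for 36 members and below 0 for 12. Knockout values lay above every WT value for 13 members, 11 of the 25 replication genes and 2 of the 23 mitosis genes, where 18.8% of all tested genes did so. Counting either direction, 16 members did not overlap, Mcm6, Bub1b and Cenpa being lower in the knockout, where 36.7% of all tested genes did not.

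**Figure D1:**
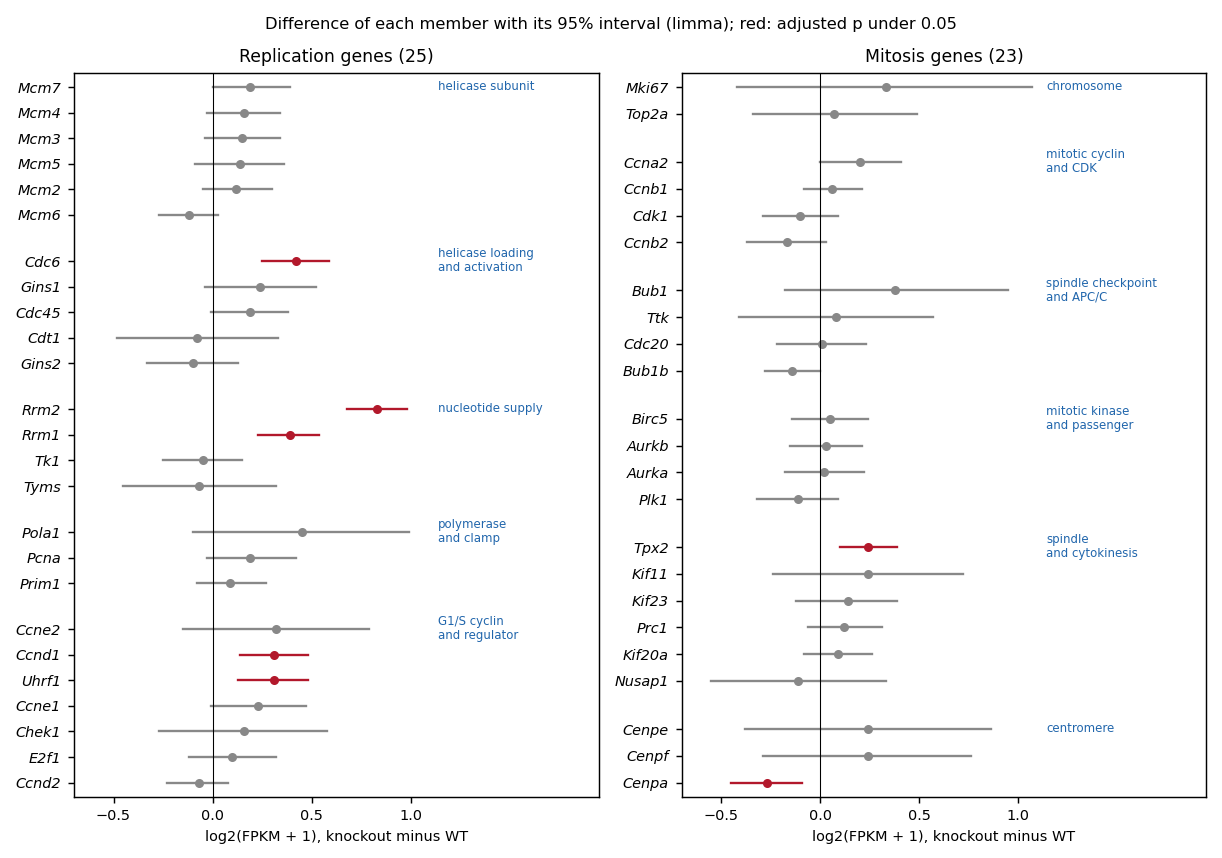
Knockout minus WT difference of each member on the log2(FPKM + 1) scale (x axis), with limma's 95% interval as a bar, grouped by role; red marks an adjusted p under 0.05. Of 48 members 7 are red, Rrm2 stands farthest to the right at 0.83, and the widest intervals belong to genes such as Mki67, Cenpe and Bub1.

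Of the 4 genes that supply deoxynucleotides, 2 rose. Rrm2 encodes the small subunit of ribonucleotide reductase, whose abundance limits the enzyme in S phase. Its FPKM was 51.4, 51.0 and 53.6 in knockout replicates 1, 2 and 3, against 29.8, 29.3 and 27.4 in WT replicates 1, 2 and 3. Every knockout library was above every WT library, and the log2 difference was 0.83 ± 0.06 (SE, adjusted p = 0.000254, limma), a 1.80-fold ratio of means. Rrm1, the large subunit of the same enzyme, stood at 30.3, 29.4 and 32.0 FPKM in knockout libraries and at 22.9, 22.6 and 24.0 FPKM in WT libraries, again without overlap. Its log2 difference was 0.39 ± 0.06 (adjusted p = 0.00644, limma). Tyms, which makes thymidylate, averaged 11.2 ± 1.71 FPKM in knockout and 11.8 ± 2.18 FPKM in WT cultures (SD, n = 3 each), with an interval of the log2 difference of -0.45 to 0.32. Tk1, the salvage enzyme thymidine kinase, averaged 7.73 ± 0.674 FPKM in knockout and 8.01 ± 0.406 FPKM in WT cultures, with an interval of -0.25 to 0.15. Both thus overlapped between genotypes.

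The upstream sequences of Rrm2 and Rrm1 are shown as those of the members with the smallest adjusted p-values. Each line gives the 250 bases before the RefSeq start (GRCm38.p6, gene strand, 5′ to 3′), with matches to a CCAAT box, an E2F motif or a CHR element in capitals. The Rrm2 window lies at chr12:24708004-24708253 and the Rrm1 window at chr7:102441445-102441694, both on the plus strand. The last 13 bases of the Rrm2 window follow the gene start of the deposited table. In both windows the capitals are CCAAT boxes on the plus strand.
Rrm2: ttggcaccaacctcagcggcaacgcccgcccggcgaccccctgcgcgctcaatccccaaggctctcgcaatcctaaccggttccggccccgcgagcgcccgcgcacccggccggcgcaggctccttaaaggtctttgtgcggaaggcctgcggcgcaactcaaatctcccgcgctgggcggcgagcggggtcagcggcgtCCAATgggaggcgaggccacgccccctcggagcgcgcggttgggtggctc
Rrm1: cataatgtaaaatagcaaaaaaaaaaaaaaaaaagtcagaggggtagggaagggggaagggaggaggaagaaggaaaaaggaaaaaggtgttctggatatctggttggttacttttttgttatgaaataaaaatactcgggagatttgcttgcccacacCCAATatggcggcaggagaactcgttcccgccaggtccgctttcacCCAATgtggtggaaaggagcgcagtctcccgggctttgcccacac

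Further windows show the motifs of each class, chosen after the matches were counted. The Mcm6 window (chr1:128359706-128359955, minus strand) held the most E2F matches of the replication genes and the Top2a window (chr11:99024190-99024439, minus strand) the most CCAAT matches of the mitosis genes, with as many CHR matches as Mki67 and Cdk1. In Mcm6 the capitals mark 3 E2F matches, of which the first 2 overlap on opposite strands, and 2 CCAAT boxes. In Top2a they mark 2 CHR elements and 6 CCAAT boxes.
Mcm6: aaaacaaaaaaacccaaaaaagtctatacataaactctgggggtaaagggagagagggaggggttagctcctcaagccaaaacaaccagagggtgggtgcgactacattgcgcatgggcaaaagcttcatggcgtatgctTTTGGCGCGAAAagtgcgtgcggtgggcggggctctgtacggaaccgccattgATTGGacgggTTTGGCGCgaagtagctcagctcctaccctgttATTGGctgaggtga
Top2a: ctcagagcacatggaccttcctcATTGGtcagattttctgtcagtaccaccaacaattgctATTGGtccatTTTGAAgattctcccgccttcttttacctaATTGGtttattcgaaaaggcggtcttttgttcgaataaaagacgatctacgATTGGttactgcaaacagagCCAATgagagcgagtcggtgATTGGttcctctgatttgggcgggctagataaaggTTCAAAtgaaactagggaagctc

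The motif content of replication and mitosis promoters was counted because the classes are transcribed in different waves. The letters searched on both strands were TTTGGCGC, TTTCCCGC, TTTGCCGC and TTTCGCGC for E2F, TTTGAA for CHR and CCAAT for the box, and overlapping matches were kept. Windows were found for 38 of the 48 members, 41 windows in all, since Mcm7, Uhrf1 and Prc1 have more than 1. The Cdc6 window, 1 of those with an E2F match, and the Cenpa window were counted too. Of their bases, 250 and 109 follow the gene start of the deposited table. Other windows that are not printed were not checked in this way. An E2F match was present in 6 of 21 replication windows (28.6%) and 1 of 20 mitosis windows (5.0%), against 1.86% of all 32851 windows. A CHR match was present in 2 replication windows (9.52%) and 7 mitosis windows (35.0%), against 16.0% of all windows. A CCAAT box was present in 14 replication windows (66.7%) and 18 mitosis windows (90.0%), against 33.8% of all. These shares describe letters and not bound sites, and no difference between them was tested.

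Among the genes that load and activate the helicase, Cdc6 rose. Its FPKM was 4.96, 4.59 and 4.83 in knockout libraries and 3.36, 3.16 and 3.45 in WT libraries, with no overlap and a log2 difference of 0.42 ± 0.07 (SE, adjusted p = 0.00734, limma). Cdc45, a component of the active helicase, had 8.99, 8.26 and 9.85 FPKM in knockout libraries and 8.21, 7.62 and 7.59 FPKM in WT libraries. The lowest knockout value was just above the highest WT value, and the test did not pass (adjusted p = 0.182, limma). Cdt1, the partner of Cdc6 in licensing, averaged 5.46 ± 0.299 FPKM in knockout and 5.94 ± 1.74 FPKM in WT cultures (SD, n = 3 each), the WT spread resting on a value of 7.95 in replicate 3. The GINS subunits Gins1 and Gins2 had log2 differences of 0.24 and -0.10, and neither passed (adjusted p = 0.228 and 0.522, limma).

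None of the 6 MCM helicase subunits passed in limma on all 6 libraries, while Mcm7 passed after a correction for transcript GC content (0.21, adjusted p = 0.0425, limma). Mcm4 had 24.7, 27.2 and 24.5 FPKM in knockout libraries and 22.6, 21.4 and 24.3 FPKM in WT libraries. Mcm7 had 28.5, 26.5 and 31.6 FPKM in knockout libraries and 25.9, 24.1 and 25.2 FPKM in WT libraries, but shares its locus with Cops6 on the opposite strand, which stood at 41.4 FPKM in knockout and 43.3 FPKM in WT cultures. Knockout values of both subunits were above all WT values, yet their adjusted p-values were 0.221 and 0.159 (limma). Mcm6 went the other way, with 29.7, 28.0 and 30.5 FPKM in knockout libraries and 32.5, 31.0 and 32.4 FPKM in WT libraries, and did not pass either (log2 difference -0.12, adjusted p = 0.263, limma). The differences of Mcm2, Mcm3 and Mcm5 lay between 0.12 and 0.15. All 6 intervals lay within a 1.5-fold change. Of the genes at the fork, the clamp Pcna had 63.9, 50.6 and 53.8 FPKM in knockout libraries and 47.6, 49.0 and 49.5 FPKM in WT libraries (adjusted p = 0.225, limma), its knockout mean resting in part on replicate 1. The primase subunit Prim1 averaged 5.92 ± 0.344 FPKM in knockout and 5.49 ± 0.195 FPKM in WT cultures, with an interval of -0.08 to 0.27.

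Of the 4 G1 cyclin genes, Ccnd1 passed the test. Ccnd1, the cyclin that couples growth signals to Cdk4 and Cdk6, had 55.4, 56.7 and 62.1 FPKM in knockout libraries and 46.7, 44.8 and 48.2 FPKM in WT libraries. The groups did not overlap and Ccnd1 rose (log2 difference 0.31 ± 0.07 SE, adjusted p = 0.0240, limma). Its paralog Ccnd2 had 43.5, 47.0 and 46.4 FPKM in knockout libraries and 48.04, 49.9 and 46.3 FPKM in WT libraries, which overlapped, with an interval of -0.23 to 0.08. Ccne1, the Cdk2 partner at S phase entry, had 13.7, 12.6 and 15.4 FPKM in knockout libraries and 12.5, 10.4 and 12.2 FPKM in WT libraries, just without overlap and without a call (adjusted p = 0.184, limma). Its paralog Ccne2 had 4.19, 4.89 and 2.5 FPKM in knockout replicates 1, 2 and 3 and 2.74, 3.16 and 2.54 FPKM in WT libraries, a log2 difference of 0.32 that did not pass (adjusted p = 0.328, limma). The transcription factor E2f1 averaged 14.3 ± 1.34 FPKM in knockout and 13.3 ± 0.986 FPKM in WT cultures (SD, n = 3 each), with an interval of -0.12 to 0.32. Uhrf1, which recruits the maintenance DNA methyltransferase to new DNA, had 20.1, 20.9 and 22.4 FPKM in knockout libraries and 16.0, 16.7 and 17.98 FPKM in WT libraries. It rose without overlap (0.31 ± 0.07 SE, adjusted p = 0.0297, limma).

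**Figure D2:**
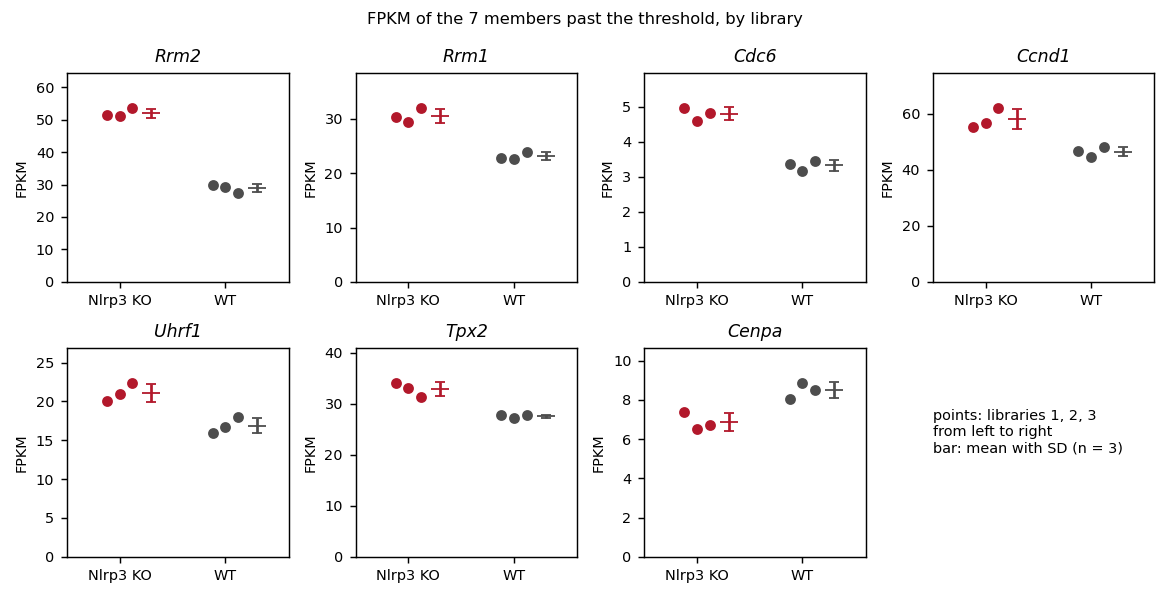
FPKM (y axis, from 0) of the 7 members past the threshold in each library of the knockout (left, red) and WT (right, grey) groups, with the mean and SD of 3 libraries beside the points. The groups do not overlap in any panel; Rrm2 shows the widest gap, and Cenpa is the panel where the knockout is lower.

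In the mitosis class Tpx2 rose and Cenpa fell. Tpx2, which activates Aurora A on the spindle, had 34.1, 33.1 and 31.4 FPKM in knockout libraries and 27.8, 27.2 and 27.7 FPKM in WT libraries (log2 difference 0.24 ± 0.06 SE, adjusted p = 0.0328, limma). Cenpa encodes the histone H3 variant that marks centromeres and had 7.36, 6.49 and 6.71 FPKM in knockout libraries and 8.05, 8.86 and 8.52 FPKM in WT libraries. Its log2 difference was -0.27 ± 0.08 (SE, adjusted p = 0.0491, limma). Neither gene's groups overlapped. The sample titles give a day number in both genotypes, and with that number as a replicate block the adjusted p was 0.0583 for Tpx2 and 0.107 for Cenpa (limma), so that no mitosis gene passed in either direction. Another label field gives Day 1 for all 6 libraries, so whether the numbers pair the libraries is not settled. Of the 15 alternative analyses, 7 kept the call of Tpx2, with adjusted p-values of 0.0193 to 0.119, and 7 kept that of Cenpa, with 0.0183 to 0.155 (limma, edgeR and DESeq2). For comparison, 15 of 15 kept Rrm2, Rrm1 and Cdc6, 11 kept Ccnd1 and 10 kept Uhrf1. The call of Cenpa was lost on leaving out any of the 6 libraries, and that of Tpx2 on leaving out any except knockout replicate 3. Ccnd1 was lost without knockout replicate 1 (adjusted p = 0.0512) or any WT library (0.0607 to 0.0902), and Uhrf1 without knockout replicate 1 or 2 or WT replicate 1 or 2 (0.0570 to 0.118, limma). The count of replication genes higher was thus 3 without knockout replicate 1, WT replicate 1 or WT replicate 2. The share of all tested genes higher in those fits is not given here, so this count has no background beside it.

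The cyclins and kinases that run mitosis did not pass. Ccna2, cyclin A, had 28.4, 29.8 and 28.2 FPKM in knockout libraries and 26.5, 22.1 and 26.2 FPKM in WT libraries, with knockout above WT throughout and an adjusted p of 0.164 (limma). Ccnb2, a cyclin B, had 33.6, 31.6 and 37.6 FPKM in knockout libraries and 37.6, 37.2 and 40.6 FPKM in WT libraries, which overlapped (adjusted p = 0.236, limma). Its paralog Ccnb1 averaged 18.6 ± 0.655 FPKM in knockout and 17.7 ± 0.477 FPKM in WT cultures, and their kinase Cdk1 averaged 19.0 ± 1.59 FPKM in knockout and 20.4 ± 1.05 FPKM in WT cultures (SD, n = 3 each). The interval of the log2 difference was -0.08 to 0.21 for Ccnb1 and -0.29 to 0.09 for Cdk1.

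Plk1, a kinase of spindle assembly and mitotic exit, had 44.6, 43.1 and 52.3 FPKM in knockout libraries and 51.6, 50.4 and 49.3 FPKM in WT libraries. Knockout values lay on both sides of the WT values, with an interval of -0.32 to 0.09. The Aurora kinase genes Aurka and Aurkb and Birc5, which encodes the passenger protein survivin, had log2 differences of 0.02, 0.03 and 0.05, and each interval lay within a 1.5-fold change. Cdc20 had 46.6, 46.9 and 54.3 FPKM in knockout libraries and 48.9, 45.1 and 53.2 FPKM in WT libraries, an estimated difference of 0.01 with an interval of -0.22 to 0.23. Bub1b, the checkpoint protein BubR1, had 18.4, 18.4 and 17.5 FPKM in knockout libraries and 19.7, 20.6 and 19.9 FPKM in WT libraries. All knockout values were lower, but the test did not pass (log2 difference -0.14, adjusted p = 0.157, limma). Kif20a, a kinesin of cytokinesis, had 31.1, 31.0 and 33.9 FPKM in knockout libraries and 30.8, 28.3 and 31.0 FPKM in WT libraries (interval -0.08 to 0.26). Kif23 and Prc1, which bundle the central spindle, had differences of 0.14 and 0.12 and did not pass.

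A group of 11 members, formed after their values were seen, was low in knockout replicate 3, each lying more than 0.5 (log2) below the mean of knockout replicates 1 and 2 in that library. Of 10684 tested genes with a transcript annotation, 7.22% lay as low. The 11 members are Mki67, Top2a, Bub1, Ttk, Cenpe, Cenpf, Kif11 and Nusap1 of the mitosis genes and Pola1, Ccne2 and Chek1 of the replication genes. In each of the 11, knockout replicates 1 and 2 were both above every WT library, and knockout replicate 3 was below every WT library. Mki67, the proliferation antigen Ki-67, had 14.4, 21.1 and 7.86 FPKM in knockout replicates 1, 2 and 3 and 9.63, 11.7 and 10.4 FPKM in WT replicates. Bub1, a spindle checkpoint kinase, had 8.15, 9.66 and 4.49 FPKM in knockout and 5.12, 5.46 and 5.12 FPKM in WT replicates. Pola1, the catalytic subunit of DNA polymerase alpha, had 3.06, 3.86 and 1.55 FPKM in knockout and 1.62, 1.71 and 1.80 FPKM in WT replicates. Because the group was formed on a low knockout replicate 3, a wide spread among its knockout libraries follows from that choice and is no separate result. Top2a, the topoisomerase that untangles sister chromatids, had 28.4, 32.5 and 19.6 FPKM in knockout and 23.7, 25.5 and 25.7 FPKM in WT replicates. The kinetochore motor gene Cenpe had 4.77, 6.19 and 2.48 FPKM in knockout and 3.08, 3.93 and 3.33 FPKM in WT replicates.

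**Figure D3:**
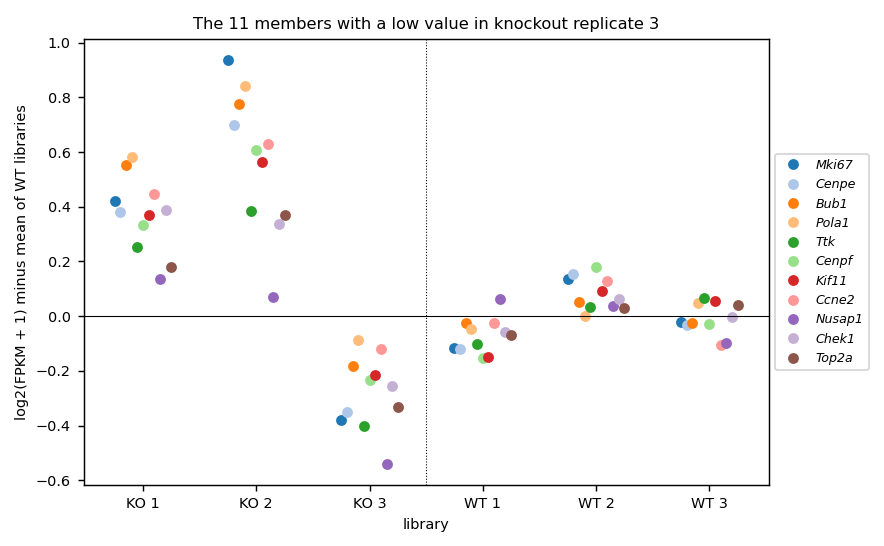
Level of the 11 members in each library (x axis), as log2(FPKM + 1) minus the mean of the 3 WT libraries (y axis), each colour being a gene. All 11, chosen for a low knockout replicate 3, lie above 0 in knockout replicates 1 and 2 and below 0 in replicate 3. The WT libraries, whose mean sets 0, stay close to it.

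The low values in knockout replicate 3 went with the base composition of the transcripts and, less closely, with their length. On the log2(FPKM + 1) scale replicate 3 stood between 0.61 and 1.06 below the mean of knockout replicates 1 and 2 for these 11 genes, whereas the other 37 members deviated by -0.28 to 0.25. The GC content of the longest coding transcript was 36.3% to 46.6% for the 11 genes and 44.2% to 58.8% for the other 37, and median transcript lengths were 4819 and 3026 bases. All 10 members with a GC content under 44% were among the 11, and Mki67, at 46.6% with a transcript of 10061 bases, was the other. Over all tested genes the same library was lower at low GC: its median deviation was -0.48 for 445 genes up to 40% and -0.27 for 1455 genes from 40% to 44%, against 0.13 for 2108 genes over 56%. Spearman's rho between deviation and GC content was 0.81 across the 48 members and 0.56 across 10684 genes. Between deviation and transcript length it was -0.49 across the members and -0.41 across the 10684 genes. These values are a description only, since the genes share the library. After a correction of each library for GC content the 11 genes still deviated by -0.98 to -0.06 in replicate 3. What else sets the library apart was not tested.

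**Figure D4:**
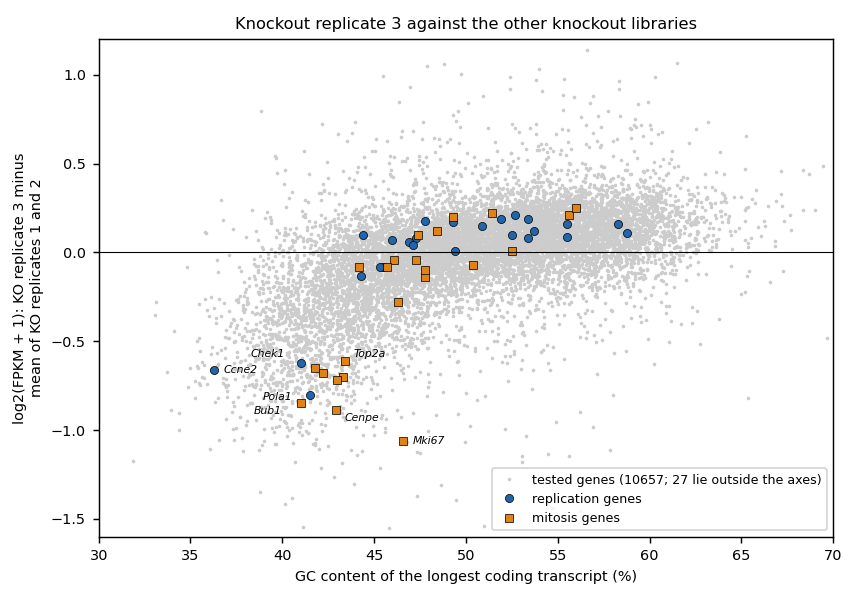
Deviation of knockout replicate 3 from the mean of knockout replicates 1 and 2 on the log2(FPKM + 1) scale (y axis) against transcript GC content (x axis), for 10657 tested genes (grey), replication genes (blue circles) and mitosis genes (orange squares); 27 genes lie outside the axes. Members under 44% GC and Mki67 sit more than 0.5 below 0.

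This library decides several of the counts. Without knockout replicate 3, 8 replication genes and 5 mitosis genes rose and none fell (limma), that is 27.1% of the members higher, where 13.9% of all tested genes rose and 10.8% fell in the same analysis. The 11 genes above were grouped for a low knockout replicate 3, so their estimates rise by that choice once it is left out. The 27.1% rests in part on this and is no separate result. Of the 13 genes, 7 belong to those 11. Among them, Mki67 had a log2 difference of 0.68 (adjusted p = 0.0396, limma), Bub1 of 0.66 (adjusted p = 0.00583, limma) and Pola1 of 0.71 (adjusted p = 0.00743, limma), and the others were Ccne2, Kif11, Cenpe and Chek1. With all libraries and the GC correction, none of the 11 passed and Mcm7 joined the calls, making 6 replication genes higher, with 1 mitosis gene higher and 1 lower; 13.3% of all genes then rose and 12.6% fell. Rrm2, Rrm1, Cdc6, Ccnd1, Uhrf1 and Tpx2 passed in both analyses, and Cenpa passed in the second only (adjusted p = 0.0730 without knockout replicate 3, limma).

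Other genes of the same processes, beyond the 48, were counted in the same way. Of 41 tested replication genes outside the members 1 rose and none fell, with a median log2 difference of 0.06 (limma). It was Mcm10, a replication initiation factor, with 3.35, 3.87 and 3.63 FPKM in knockout libraries and 2.58, 2.78 and 2.80 FPKM in WT libraries (0.31 ± 0.08 SE, adjusted p = 0.0364, limma). Of 52 tested mitosis genes outside the members 6 rose and none fell, with a median of 0.10. Mcm10 was not called without knockout replicate 1 or any WT library, which left a count of 0, as did the replicate block. These counts stand against 10.4% of all tested genes higher and 9.20% lower.

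Of the 6 mitosis genes outside the members that rose, 4 are named here. Pttg1, which encodes securin, the inhibitor of sister separation, had 20.0, 18.9 and 21.6 FPKM in knockout libraries and 13.4, 10.9 and 14.2 FPKM in WT libraries (0.62 ± 0.11 SE, adjusted p = 0.00807, limma). Anln, the cytokinetic ring protein anillin, averaged 15.4 ± 2.21 FPKM in knockout and 10.0 ± 0.180 FPKM in WT cultures (0.57, adjusted p = 0.00999, limma; SD, n = 3 each). Mybl2, which encodes the mitotic gene activator B-Myb, averaged 8.84 ± 0.594 FPKM in knockout and 6.16 ± 0.221 FPKM in WT cultures (0.46, adjusted p = 0.00592, limma). Arhgap11a, a GTPase-activating protein of dividing cells, had 11.6, 13.5 and 8.50 FPKM in knockout libraries and 5.94, 6.88 and 6.94 FPKM in WT libraries (0.67, adjusted p = 0.0298, limma), with knockout replicate 3 again the lowest of its group. Without that library 16 of the 52 rose and 1 fell, where 13.9% of all tested genes rose and 10.8% fell.

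Among regulators of the cycle, Cdkn2a and Cdkn1c had larger differences than any member. Of 23 tested brakes of the cycle 3 rose and 4 fell, with a median of -0.07 (limma). Cdkn2a, whose products restrain Cdk4 and Cdk6 and stabilise p53, had 58.2, 51.2 and 62.2 FPKM in knockout libraries and 246, 196 and 264 FPKM in WT libraries (-2.02 ± 0.13 SE, adjusted p = 0.000141, limma). Cdkn1c, encoding p57, averaged 0.130 ± 0.0656 FPKM in knockout and 2.42 ± 0.390 FPKM in WT cultures (SD, n = 3 each; -1.59, adjusted p = 0.000188, limma). Cdkn1a, the p53 target p21, went the other way, with 76.7, 70.5 and 83.1 FPKM in knockout libraries and 43.0, 45.0 and 43.1 FPKM in WT libraries (0.80 ± 0.08 SE, adjusted p = 0.000725, limma). Ccng1, another p53 target, averaged 55.3 ± 10.0 FPKM in knockout and 31.7 ± 2.35 FPKM in WT cultures (0.77, adjusted p = 0.0105, limma; SD, n = 3 each). Cdkn1b, encoding p27, averaged 6.74 ± 0.595 FPKM in knockout and 8.15 ± 1.09 FPKM in WT cultures and did not pass (interval -0.51 to 0.03). Of 14 tested drivers 2 rose and none fell, with a median of 0.04, namely the atypical E2F genes E2f7 (2.66 FPKM in knockout and 1.81 FPKM in WT cultures, 0.38, adjusted p = 0.0216, limma) and E2f8 (4.66 FPKM in knockout and 3.47 FPKM in WT cultures, 0.34, adjusted p = 0.0328, limma). Neither passed without knockout replicate 1, WT replicate 1 or WT replicate 2. Although listed here with the drivers, the atypical E2Fs are known as repressors of replication genes late in S phase. No other gene of the driver list passed.

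**Figure D5:**
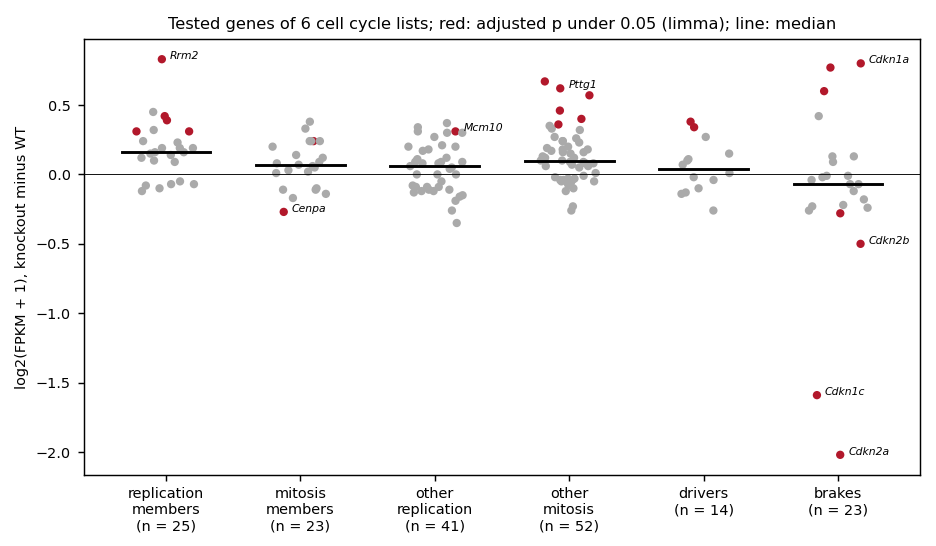
Knockout minus WT difference on the log2(FPKM + 1) scale (y axis) of the tested genes of 6 cell cycle lists (x axis), red for an adjusted p under 0.05 and a line at each median. Members and the other replication, mitosis and driver genes lie between -0.35 and 0.83, while the brakes spread from -2.02 for Cdkn2a to 0.80 for Cdkn1a.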

How the data were processed

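The submitters' processing notes name GRCm38 and the tools cutadapt 1.9, HISAT2 2.0.4 and StringTie 1.3.4d. How genes were counted, with which annotation release and strand setting, is not given in the sources used here. The authors deposited FPKM and counts per gene, per the file headers, and the counts were treated here as estimated counts. These counts are whole numbers and proportional to FPKM. Over the 5837 more abundant genes compared, 100% of the library-to-library ratios of count to FPKM lay within 1% of a single factor. Counted reads divided by a fixed gene length would give the same, so this does not separate counted from estimated values. Of counts up to 16, 44.4% were multiples of 4, against 25% if evenly spread, so depth in fragments was taken as counts divided by 4, an inference from the values.

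A gene was tested where at least 3 libraries of the 6 reached an FPKM of 1. The test was limma 3.58.1 in R 4.3.3 on log2(FPKM + 1), two-sided, with genotype alone in the model and a mean-variance trend, and p-values were adjusted by Benjamini-Hochberg across the tested genes with a threshold of 0.05. The step was tested on simulated data, in which changed genes differed by at least 1.5-fold and no library depended on GC content. Smaller changes and a library like knockout replicate 3 were therefore not covered. Alternatives were edgeR 4.0.16 and DESeq2 1.42.0 on the estimated counts, another pseudocount, other filters and another scaling, leaving out each library, and a replicate block. A correction for transcript GC content (loess per library, span 0.5, on the longest coding GENCODE M21 transcript) and edgeR on counts divided by 4 were added after the values were seen.

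The 48 members and the other lists were chosen with earlier results of these data known. Values in every library are given for members past the threshold, the 6 nearest misses and the 5 most abundant members of each class. They are also given for Ccne2, Mki67, Bub1, Pola1, Top2a and Cenpe. These belong to the group low in knockout replicate 3, which was formed after the values were seen. Of each other cell cycle list, the 4 called genes with the largest change are named, with Cdkn1a, Cdkn1b and Cdkn2a always. Of the macrophage list 32 of 33 symbols matched the table, and every symbol of the other lists matched. Promoter windows are RefSeq's for GRCm38.p6, cut to the 250 bases before the start. The Cdc6 and Cenpa windows are not printed because 250 and 109 of their bases follow the gene start of the deposited table. Replicate numbers are the day numbers of the sample titles, while another label field reads Day 1 for all samples. Same-numbered libraries had correlations of deviations from group means of 0.02, 0.168 and 0.096, not all over 0.1. The model therefore has no block, and values with the replicate block are given where it changed a call.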

Additional observations from a re-analysis of the deposited data

How the results depend on the processing

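Both genotypes carry the same day numbers in the titles, but another label field contradicts them. Knockout replicates 2 and 3 correlated best with their same-numbered WT libraries (0.168 and 0.096). Knockout replicate 1 correlated at 0.02 with WT replicates 1 and 2 alike, and WT replicate 1 correlated better with knockout replicate 3 (0.081). Whether the libraries are paired is thus not settled. With a replicate block, 0 mitosis genes rose or fell and 0 other replication genes rose, where the fit without it called 1 each; the pairing moved no other count of calls by over 1.5 times. The count of mitosis genes higher was also 0 in edgeR and in DESeq2, and the count lower was 0 with no filter on low values. The replication median of 0.16 was 0.19 in edgeR and in DESeq2, 0.20 with a pseudocount of 0.1 and 0.18 in edgeR on counts divided by 4. Other replication genes higher numbered 3 in DESeq2, 0 with no filter and 4 with the GC correction, which also called 2 lower; other mitosis genes lower numbered 1 under median-of-ratios scaling and under the GC correction, brakes lower 7 under the GC correction, and drivers higher 0 with no filter. Leaving out 1 library in turn gave 3 to 8 replication genes higher, with a median of 0.13 to 0.19, 0 to 5 mitosis genes higher and 0 to 0 lower, 0 to 4 other replication genes higher and 0 to 2 lower, 4 to 16 other mitosis genes higher and 0 to 1 lower, 0 to 2 drivers higher, and 721 to 1314 genes of all lower. The highest member counts were those without knockout replicate 3, where 13.9% of all tested genes rose. For the other libraries left out the share of all genes higher is not given here, so those counts have no background beside them. The estimate of Cdc20 was -0.01 in edgeR (both count scales), in DESeq2 and under median-of-ratios scaling, and the GC correction gave -0.01 for Top2a, Ccnb1 and Ttk; these genes were not called in any of those fits. Leaving out 1 library gave ranges that span 0 for the uncalled genes Cdt1 (-0.19 to 0.12), Tyms (-0.21 to 0.06), Tk1 (-0.10 to 0.01), Top2a (-0.08 to 0.27), Cdc20 (-0.07 to 0.06), Aurka (-0.05 to 0.09), Aurkb (-0.03 to 0.06), Nusap1 (-0.23 to 0.10) and Ttk (-0.07 to 0.32). The causes of these shifts were not tested. Every member had at least 329 estimated counts in each library. With 3 libraries a genotype, the number of libraries also limits precision.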

Other observations

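Rrm2b, the p53-inducible small subunit of ribonucleotide reductase, was looked up after the values of Rrm2 were seen. It stood at 0.89, 1.12 and 0.54 FPKM in knockout libraries and at 0.70, 0.88 and 0.67 FPKM in WT libraries, below the expression filter, so it was not tested. Its groups overlapped and its knockout replicate 3 was again the lowest value.

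Of the 48 members 11 are overlapped on the opposite strand by a gene of at least 1 FPKM, and their reads cannot be told apart with certainty because the strand setting of the counting is not given in the sources used here. Ccnd1 is the only called member among them, beside LTO1 with 1.13 FPKM in knockout and 1.45 FPKM in WT cultures. Of pseudogenes named after members, Ccnb1-ps averaged 1.27 FPKM in knockout and 1.15 FPKM in WT cultures, and Pcna-ps2 averaged 1.09 FPKM in knockout and 1.10 FPKM in WT cultures.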
